A study of Mus musculus with 10 samples.

Results

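Gene expression was compared directly between FBB1.10 and FBB1.11, 2 subclones of mouse erythroleukemia (MEL) cells that carry BCL11A with a FLAG-Biotag, a peptide label that the bacterial ligase BirA can biotinylate. The members are the arrays titled with either name, 2 for each subclone and 4 of the 10 arrays of the series, across all probe sets that are not controls. They were chosen by title. The other 6 arrays are pairs of the parental line, which carries BirA without the tagged protein, and of the tagged subclones FBB1.5 and FBB1.7. All 5 lines therefore share the MEL background and BirA, and no treatment, time course or induction is given in the labels. Each subclone is a single line, so an effect of the tagged protein and any other way in which a pair of clones can differ cannot be told apart. The labels do not say whether both arrays of a subclone stem from independent cultures. The p-values weigh a difference against the spread between arrays, and that spread may be purely technical.

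BCL11A is a zinc-finger repressor best known for silencing fetal globin genes in adult red cells, and MEL cells are virus-transformed red cell precursors held at an early stage. Cells that fold many proteins in the endoplasmic reticulum (ER) rely on chaperones such as BiP, the product of Hspa5. When unfolded proteins build up there, the unfolded protein response raises the chaperone genes through a promoter motif, the ER stress response element (ERSE), and a second branch through the factor ATF4 raises genes of amino acid supply.

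The Bcl11a probe set on which the pair was matched read 233 and 165 on the arrays of FBB1.10 and 245 and 181 on those of FBB1.11. Both subclones lay above the parental arrays, at 39.7 and 35.9, and their ranges overlapped each other. The difference, FBB1.10 minus FBB1.11 on the log2(intensity + 16) scale used throughout, was -0.10 with a 95% interval from -0.50 to 0.30, which describes the match and tests nothing. Of the 7 Bcl11a probe sets 6 were bright enough to test, the matched one among them, whose outcome the match had set. None of the others passed limma's adjusted p of 0.05. The one with the smallest p, 1419406_a_at, read 279 and 317 in FBB1.10 and 350.1 and 404 in FBB1.11, a difference of -0.32 ± 0.11 (SE, n = 2 and 2, adjusted p = 0.379). Its 95% interval ran from -0.56 to -0.08.

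The test took in 25061 of 45037 probe sets, those above the table's median intensity of 30.5 on 2 or more of the 10 arrays. Of these, 67 (0.267%) differed between FBB1.10 and FBB1.11 at limma's adjusted p under 0.05, 44 (0.176%) higher in FBB1.10 and 23 (0.0918%) higher in FBB1.11. At an unadjusted p under 0.05 there were 2178 (8.69%). The 67 stand for 42 genes, 12 of them with several passing probe sets, beside 5 probe sets without a gene symbol and 1 shared by Gm5424 and Ass1. Read by the brightest probe set of each gene, 35 of 12502 genes (0.28%) passed, 22 higher in FBB1.10 and 13 higher in FBB1.11. The differences were mostly small. Their median size was 0.68 on the log2 scale, and 10 of the 67 reached a factor of 2. In all 67 the arrays of FBB1.10 and FBB1.11 did not overlap, so a lack of overlap adds nothing to a call. The share without overlap among all tested probe sets is not given here. Just inside the threshold lay probe sets of Xbp1 (0.62) and Ptms (-0.47), and just outside it Chaserr (0.71) and Ptprs (-0.68).

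**Figure D1:**
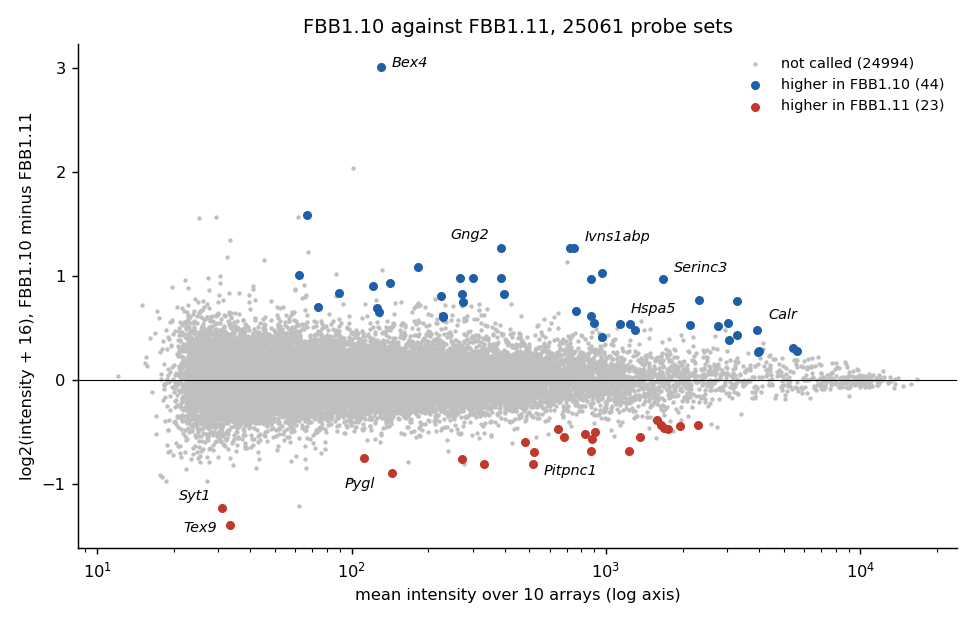
Fitted difference on the log2(intensity + 16) scale, FBB1.10 minus FBB1.11, against mean intensity over the 10 arrays (log axis), one point for each of 25061 probe sets. Blue points (44) were higher in FBB1.10 and red points (23) higher in FBB1.11 at an adjusted p under 0.05; Bex4 stands alone at 3.01.

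The calls rested on few arrays. Without array 1 of FBB1.10 the count fell to 7, without array 1 of FBB1.11 to 9 and without array 2 of FBB1.11 to 7, while it was 151 or 149 without one or the other parental array. Leaving out any of the remaining 5 arrays gave 47 to 80. Of 34 named genes that passed, 31 lost their call without each of those 3 arrays, and the genes that kept it were Bex4 and Serinc3 in each case, Calr without either array 1 and Pitpnc1 without array 2 of FBB1.11. All 67 probe sets kept their direction in each of these fits, which was fixed beforehand. In none of them did the arrays of FBB1.10 and FBB1.11 overlap, so leaving out 1 array could not reverse a difference. Array 1 of FBB1.10 read above array 2 in 37 of the 44 probe sets that were higher in FBB1.10, against 54.3% of all tested probe sets, with a median gap of 0.16. An exact permutation test of 2 arrays against 2 cannot go below p = 0.333, so single genes were judged only by the model fitted across all probe sets, which pools the spread over the 5 lines. Without the intensity trend of that model 2 calls remained, Bex4 and Syt1. Of these, Syt1 had entered the test only through FBB1.11, the line in which it was high.

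Several chaperone genes of the ER were higher in FBB1.10. Of 21 tested members of a list of ER folding and unfolded protein response genes, 4 passed, all higher in FBB1.10, against 0.28% of all genes, and 18 of 21 were above 0 against 50.9% of all genes. The median difference of the list was 0.26, beside 0.0032 over all genes. This list and those below were chosen with earlier results of these data known, so these shares are a description. The share of all genes also counts dim ones. With a mean above 100 required, 92 of 11394 probe sets passed. The 4 were Hspa5, encoding BiP, Calr, encoding the calcium-binding lectin chaperone calreticulin, Hsp90b1, encoding the ER form of HSP90, and Pdia6, encoding a protein disulfide isomerase. By a looser rule chosen after the data were seen, in which any probe set of a gene may pass, Ero1a and Xbp1 joined them.

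The 4 genes are shown by the 250 bases before their transcription start, because all 4 windows hold the letters of the ERSE, CCAAT, then any 9 bases, then CCACG, on either strand, marked in capitals. Sequences are from RefSeq, build GRCm38.p6, written 5′ to 3′ along the gene at chr2:34771840-34772089 (plus strand, Hspa5), chr8:84846932-84847181 (minus strand, Calr), chr10:86705445-86705694 (minus strand, Hsp90b1) and chr12:17266339-17266588 (plus strand, Pdia6).
Hspa5: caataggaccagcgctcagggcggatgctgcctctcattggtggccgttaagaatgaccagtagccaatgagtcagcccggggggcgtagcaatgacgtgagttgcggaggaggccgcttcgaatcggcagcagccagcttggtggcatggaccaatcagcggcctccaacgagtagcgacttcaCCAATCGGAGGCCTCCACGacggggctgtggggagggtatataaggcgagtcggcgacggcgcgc
Calr: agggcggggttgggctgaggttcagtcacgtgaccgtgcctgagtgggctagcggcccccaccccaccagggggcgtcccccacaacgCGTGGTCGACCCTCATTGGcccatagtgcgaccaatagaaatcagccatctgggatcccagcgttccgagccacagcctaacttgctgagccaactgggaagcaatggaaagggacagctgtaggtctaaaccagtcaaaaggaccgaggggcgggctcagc
Hsp90b1: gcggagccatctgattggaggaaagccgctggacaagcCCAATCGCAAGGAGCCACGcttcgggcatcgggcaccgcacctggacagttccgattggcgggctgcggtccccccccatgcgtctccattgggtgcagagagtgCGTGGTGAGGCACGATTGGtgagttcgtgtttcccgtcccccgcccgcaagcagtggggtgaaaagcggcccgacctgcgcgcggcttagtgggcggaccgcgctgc
Pdia6: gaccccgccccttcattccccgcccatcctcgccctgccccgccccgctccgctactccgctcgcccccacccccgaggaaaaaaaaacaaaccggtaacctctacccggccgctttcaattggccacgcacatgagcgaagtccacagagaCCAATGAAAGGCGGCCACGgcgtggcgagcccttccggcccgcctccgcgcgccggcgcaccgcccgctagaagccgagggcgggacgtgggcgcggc

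The motif starts 65 bases upstream of the start of Hspa5, 162 of Calr, where it lies on the opposite strand, and 98 of Pdia6. Hsp90b1 holds it at 212 bases and, on the opposite strand, at 107. These letters are rare. They occur in 39 of 32851 RefSeq promoter windows (0.119%), each running from 250 bases before to 50 after a start, and in 37 of 27025 genes. Of the 18 list genes with such a window 8 hold the motif, the 4 that passed and Canx, Dnajc3, Creld2 and Syvn1, whose differences were 0.30, 0.22, 0.03 and -0.02 and did not pass. Of the 16 tested genes with the motif 8 are outside the list, and none of those passed (range -0.25 for Ero1b to 0.39 for Pan2, median -0.00036). The related ERSE-II, ATTGG, any base, CCACG, were found in Herpud1 and Dnajb11 and in 0.0365% of all windows. A match is a description of these letters only, and no binding was measured.

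Hspa5 read 1443 and 1672 on the arrays of FBB1.10 and 1007 and 1119 on those of FBB1.11. The pairs did not overlap, and the difference was 0.54 ± 0.09 (SE, n = 2 and 2, limma's adjusted p = 0.0169). A second of its 3 probe sets passed at 0.62 ± 0.09 (adjusted p = 0.00687), and the dimmest did not (0.16, adjusted p = 0.735). Calr was the firmest of the group. It read 4931 and 5156 in FBB1.10 against 3783 and 3420.1 in FBB1.11, a difference of 0.49 ± 0.06 (adjusted p = 0.00411), and its 3 probe sets all passed at 0.49 to 0.55. One of them, 1417606_a_at, kept its call whichever of the 10 arrays was left out. The brightest lost it without array 2 of FBB1.11 (adjusted p = 0.0835).

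Hsp90b1 read 1648 and 1631 in FBB1.10 and 1124 and 1221 in FBB1.11, a difference of 0.48 ± 0.07 (adjusted p = 0.0106), and its second probe set gave 0.40 (adjusted p = 0.112). Pdia6 read 874 and 1056 against 602 and 599, a difference of 0.66 ± 0.12 (adjusted p = 0.0264). Both array pairs of each gene were apart. The second probe set of Pdia6, far dimmer, gave -0.16 (adjusted p = 0.868), so the call rests on one of its 2 probe sets. With single arrays left out, adjusted p reached 0.202 for Hsp90b1, 0.258 for Pdia6 and 0.282 for Hspa5, and the last pair lost the call without any one of the 4 arrays of both subclones. Without a minimum on intensity, Hspa5 and Pdia6 did not pass either.

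Ero1a, the oxidase that recharges protein disulfide isomerases, read 1560.0 and 1073 in FBB1.10 and 692 and 611 in FBB1.11 on probe set 1419029_at, a difference of 0.98 ± 0.13 (adjusted p = 0.00542). The brighter probe set of the gene gave 0.50 (adjusted p = 0.0929). Xbp1, a transcription factor of the unfolded protein response, passed on 1 of 4 probe sets, 1420011_s_at, which read 308 and 268 against 190 and 173 (limma's adjusted p = 0.0456). That call was kept in 10 of 22 alternatives and lost without any one of the 8 subclone arrays (adjusted p up to 0.65), and that of Ero1a was lost without array 1 of FBB1.10 or array 2 of FBB1.11 (adjusted p up to 0.0986). All 4 Xbp1 probe sets were above 0, at 0.32 to 0.62. Other members stood in the same range without passing, among them the lectin chaperone Canx (0.30, adjusted p = 0.0922), the disulfide isomerase Pdia3 (0.34, adjusted p = 0.138) and Herpud1 (0.31, adjusted p = 0.243). The disulfide isomerase Pdia4 (0.08), the chaperone Hyou1 (0.03), the degradation factor Edem1 (-0.01) and the stress sensor Atf6 (-0.05) were near 0.

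**Figure D2:**
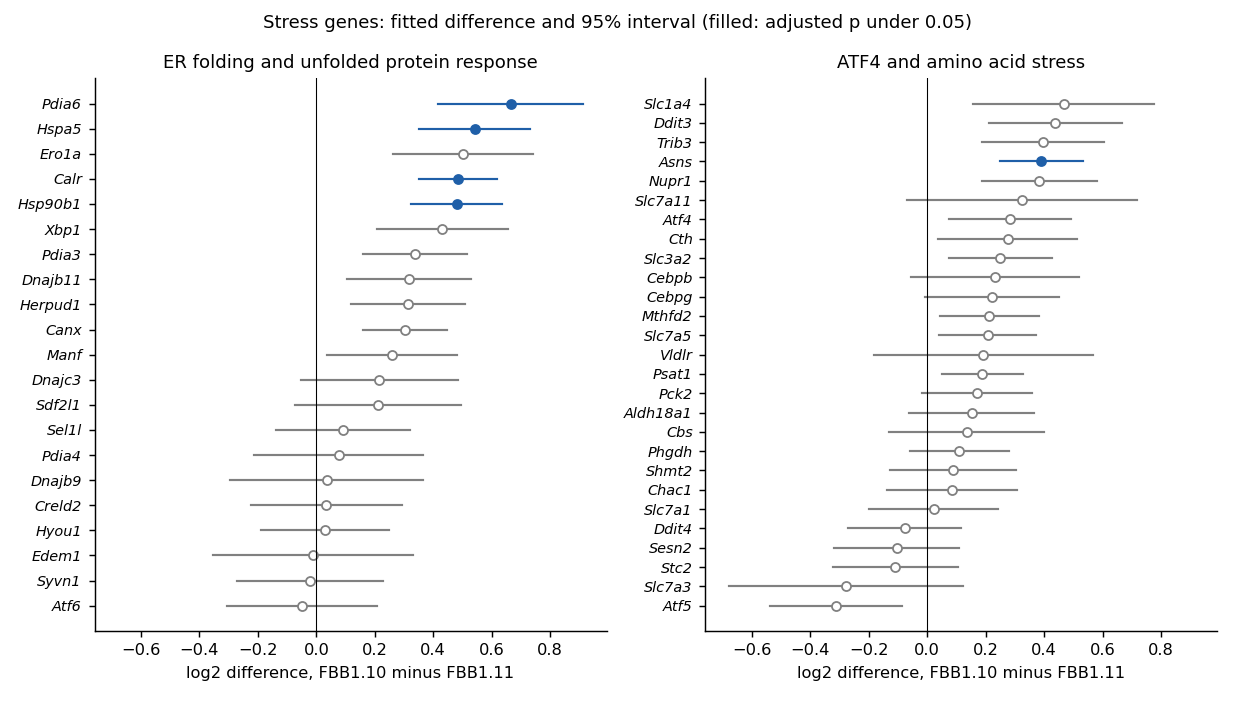
Fitted log2 difference, FBB1.10 minus FBB1.11, with its 95% interval for the 21 tested genes of the ER folding list (left) and the 27 of the ATF4 list (right), each by its brightest probe set. Filled points passed at limma's adjusted p under 0.05: Pdia6, Hspa5, Calr and Hsp90b1 on the left and Asns on the right, with 18 of 21 and 22 of 27 points above 0.

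The ATF4 branch had 1 call. Of 27 tested members Asns passed, against 0.28% of all genes, and 22 were above 0, against 50.9% of all genes. Their median was 0.19, beside 0.0032. Asns, which makes asparagine, read 3730.0 and 3477 in FBB1.10 and 2884 and 2608 in FBB1.11, a difference of 0.39 ± 0.07 (SE, n = 2 and 2, limma's adjusted p = 0.0225), and its second probe set gave 0.42 (adjusted p = 0.0623). Its call ended without array 1 of FBB1.10 or either array of FBB1.11 (adjusted p up to 0.404). The stress factor Ddit3 (0.44, adjusted p = 0.132), the pseudokinase Trib3 (0.40, adjusted p = 0.139) and Atf4 itself (0.28, adjusted p = 0.368) did not pass, and Atf5 stood at -0.31 (adjusted p = 0.354).

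Of 18 tested antioxidant and heme breakdown genes 2 passed, both higher in FBB1.10, against 0.28% of all genes, and 12 were above 0 with a median of 0.04. Hmox1, the heme oxygenase that opens the heme ring, read 405 and 311 in FBB1.10 and 196 and 190.0 in FBB1.11, a difference of 0.83 ± 0.13 (adjusted p = 0.00984). Gpx1, a glutathione peroxidase of red cells, read 4603 and 4530.5 against 3823 and 3693, a smaller difference of 0.28 ± 0.05 (adjusted p = 0.0404). The arrays of both genes were apart. Hmox1 lost its call without array 1 of FBB1.10 or either array of FBB1.11 (adjusted p up to 0.243). Gpx1 lost it without any of the 8 subclone arrays and under quantile normalization or median centring of the arrays. Other list members did not pass, among them Nqo1 (0.04), Gclm (0.09), Srxn1 (0.00) and Cat (0.37). Gstm1, a glutathione transferase outside the list, passed the other way on 1 of 4 probe sets, which read 74.6 and 70.5 in FBB1.10 and 117 and 149.5 in FBB1.11 (-0.75 ± 0.14, limma's adjusted p = 0.0414, up to 0.545 with 1 array left out). Its other 3 probe sets stood at -0.38 to -0.16 and did not pass. Hspa9, the mitochondrial HSP70, was the one called gene of 16 in the list of cytosolic and mitochondrial heat shock genes, against 0.28% of all genes. It read 4141 and 3673 in FBB1.10 and 2987 and 2774 in FBB1.11 (0.44 ± 0.07, adjusted p = 0.0197) on 1 of 4 probe sets, the others standing at 0.33 to 0.53 without passing, while the list as a whole had 8 members above and 8 below 0.

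The largest difference of the comparison was in Bex4, an X-linked gene of the brain-expressed Bex family. It read 230.5 and 228 on the arrays of FBB1.10 and 14.72 and 13.96 on those of FBB1.11, which lie below the table median of 30.5. Bex4 was at least 7.51-fold higher in FBB1.10, with a fitted difference of 3.01 ± 0.15 (SE, n = 2 and 2, limma's adjusted p = 9.46e-08). The parental arrays read 178 and 175, FBB1.5 109.95 and 78.2 and FBB1.7 121 and 158, so FBB1.11 was the one line of 5 with a signal below that level. The call held in all 22 alternatives, leave-one-out fits included. Bex3, the other tested member of the family, averaged 637 and 641 in FBB1.10 and FBB1.11 (-0.01, adjusted p = 0.987).

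Serinc3, a multipass membrane protein of the serine incorporator family, came next in firmness. Its brightest probe set read 2601 and 2115 in FBB1.10 and 1215 and 1160.2 in FBB1.11, a difference of 0.97 ± 0.09 (adjusted p = 0.000135). Of its 6 probe sets 3 passed and all were above 0, at 0.65 to 1.14. FBB1.10 lay above every array of the other 4 lines, whose highest was 1784 in the parental line, and FBB1.11 lay below every one. The call held whichever array was left out (adjusted p up to 0.00873) and ended without the intensity trend (adjusted p = 0.0892).

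Ivns1abp, an actin-binding kelch protein, read 1394 and 831 in FBB1.10 and 439 and 435 in FBB1.11. Its arrays in FBB1.10 were far apart from each other, yet both exceeded FBB1.11, and the difference was 1.27 ± 0.17 (adjusted p = 0.0063). All 3 probe sets passed, and 1450084_s_at kept its call whichever array was left out. Gng2, a G protein gamma subunit, showed the same spread, with 652 and 405 against 209 and 199 (1.27 ± 0.17, adjusted p = 0.00522). It passed on 1 of 4 probe sets, the others standing at 0.43 to 0.56. Plek, the pleckstrin of platelets and white cells, read 487 and 308 against 196 and 182 (0.98 ± 0.16, adjusted p = 0.0124). For Ivns1abp, Gng2 and Plek the gap between the arrays of FBB1.10 was thus wide, and the calls of the brightest probe sets ended without array 1 of FBB1.10 or either array of FBB1.11, with adjusted p up to 0.0919, 0.0835 and 0.199.

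Other genes higher in FBB1.10 were Bcl2, which blocks apoptosis, Prnp, the cellular prion protein, and Btg2, which restrains proliferation. Bcl2 read 358 and 329.5 in FBB1.10 and 183 and 213 in FBB1.11 (0.76 ± 0.11, adjusted p = 0.00984), with 2 of 3 probe sets passing. Prnp was bright, at 4649 and 3638 against 2555 and 2286 (0.76 ± 0.11, adjusted p = 0.00775), and both of its called probe sets stood above FBB1.11 on every array. Btg2 read 166 and 130.5 against 79.4 and 91.5 (0.69 ± 0.13, adjusted p = 0.0414), but its second probe set gave 0.14 with overlapping arrays (adjusted p = 0.856). Insl6, a relaxin-like hormone (1.09), Nrgn, a calmodulin-binding neuronal protein (0.98), and Dpp7, a lysosomal peptidase (0.83), also passed, with adjusted p of 0.0236, 0.00689 and 0.00782. The noncoding snoRNA host Snhg1 passed on 3 of 5 probe sets at 0.54 to 0.55. All these calls ended without array 1 of FBB1.10, array 1 of FBB1.11 or array 2 of FBB1.11, with adjusted p up to 0.214 for Bcl2, 0.191 for Prnp and 0.671 for Btg2, whose call also ended without any of the arrays of FBB1.5 and FBB1.7. For Insl6, Nrgn, Dpp7 and Snhg1 the highest values were 0.463, 0.156, 0.206 and 0.376.

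Among genes higher in FBB1.11, 2 were near the background in FBB1.10. Syt1, the synaptic vesicle calcium sensor, read 61.3 and 75.0 in FBB1.11 and 20.3 and 19.4 in FBB1.10. It was at least 2.22-fold higher in FBB1.11 (-1.23 ± 0.19, limma's adjusted p = 0.0107), and the other 3 lines read 19.4 to 24.1. Because no array outside FBB1.11 exceeded the table median, Syt1 entered the test only through FBB1.11, which fixed its direction beforehand. Of the 16 probe sets that entered in this way, 1 was called. Tex9, a testis-expressed gene, read 48.4 and 62.0 in FBB1.11 and 9.47 and 12.5 in FBB1.10, at least 1.80-fold higher (-1.40 ± 0.21, adjusted p = 0.00984). Its second probe set gave 0.48, of opposite sign (adjusted p = 0.49). Syt1 lost its call without any of the 4 arrays of both subclones (adjusted p up to 0.258) and Tex9 without 3 of them, all but array 2 of FBB1.10 (adjusted p up to 0.199).

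Pygl, the liver form of glycogen phosphorylase, read 96.3 and 90.2 in FBB1.10 and 183 and 191 in FBB1.11, a difference of -0.89 ± 0.13 (adjusted p = 0.00984). Nme4, a mitochondrial nucleoside diphosphate kinase, read 233 and 236 against 409 and 438 (-0.81 ± 0.10, adjusted p = 0.00411). Pitpnc1, a phosphatidylinositol transfer protein, read 333 and 318 against 635 and 529 (-0.80 ± 0.11, adjusted p = 0.00687). The arrays of a subclone lay close together for Pygl and Nme4, while those of FBB1.11 lay further apart for Pitpnc1. In all 3 genes the pairs were apart, as in every called probe set. Pitpnc1 passed on 1 of 9 probe sets, the other 8 standing between -0.55 and -0.17. The calls of Pygl and Nme4 ended without array 1 of FBB1.10 or either array of FBB1.11 (adjusted p up to 0.166 and 0.0835), that of Pygl also without array 2 of FBB1.10, and that of Pitpnc1 without array 1 of either subclone (adjusted p up to 0.134).

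Dynll1, a dynein light chain, passed on all 3 of its probe sets at -0.47 to -0.43, the brightest reading 1387 and 1660.1 in FBB1.10 and 2084 and 2133 in FBB1.11 (limma's adjusted p = 0.0367). Mindy1, a deubiquitinase, passed on 3 of 7 probe sets at -0.69 to -0.55, and the other 4 stood between -0.52 and 0.02. Single probe sets passed for Grcc10 (-0.76), the LIM protein Crip1 (-0.68), the sodium pump subunit Atp1b2 (-0.60, with -0.13 on a second that did not pass), the interferon-induced membrane protein Ifitm2 (-0.55) and Micos13, a subunit of the mitochondrial cristae complex (-0.50). By its brightest probe set each of these genes lost its call without array 1 of FBB1.10 or either array of FBB1.11, with adjusted p up to 0.557 for Dynll1, 0.214 for Mindy1 and 0.548 for Crip1. Ccnd2, a cyclin of G1 phase, passed on 1 of 7 probe sets (-0.52, adjusted p = 0.0404), and its brightest did not (-0.49, adjusted p = 0.0745). The passing one reached 0.566 with 1 array left out. All 7 were below 0. No member of the lists passed higher in FBB1.11 by its brightest probe set, against 13 of all 12502 genes.

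**Figure D3:**
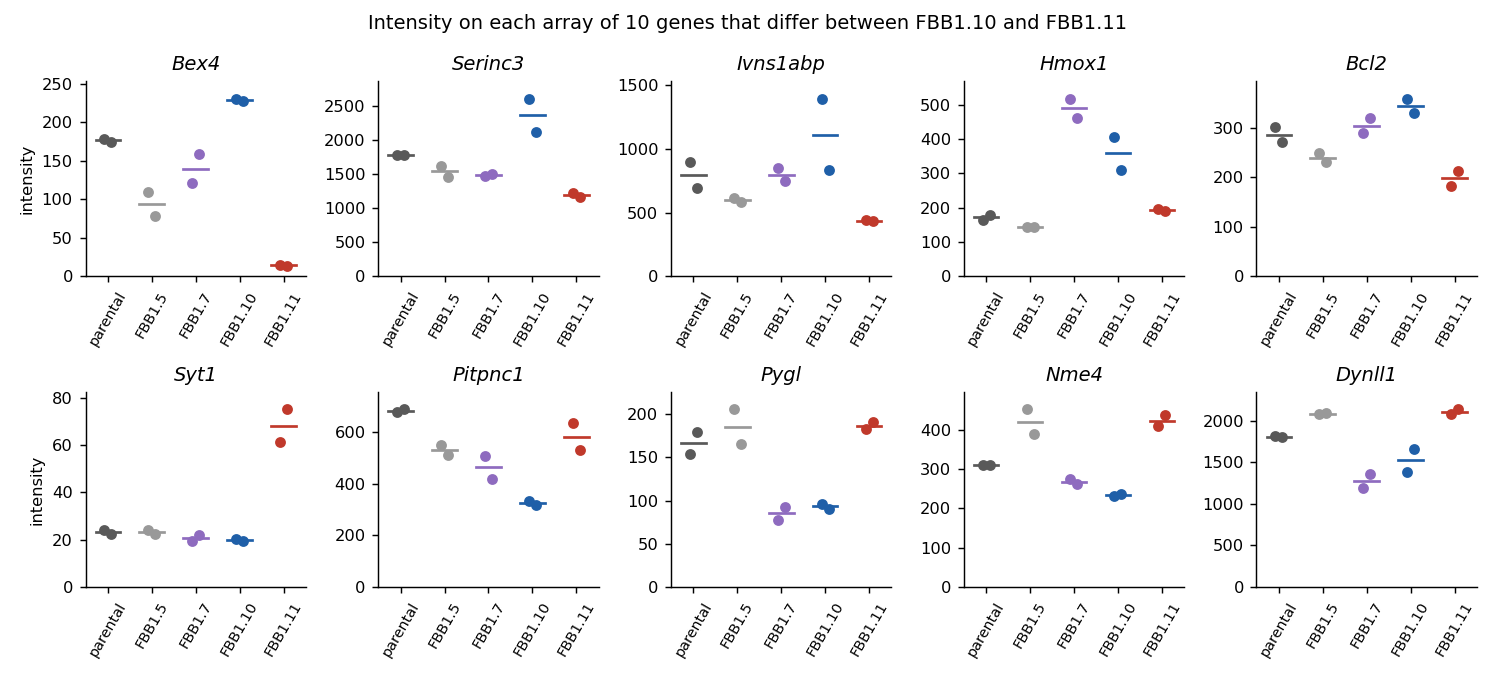
Intensity (linear axis from 0) on each of the 10 arrays for 10 genes that differed between FBB1.10 and FBB1.11, by the brightest probe set; points are arrays and bars the mean of a line (n = 2). The upper row holds genes higher in FBB1.10 (blue) and the lower row genes higher in FBB1.11 (red); Bex4 is low in FBB1.11 alone and Syt1 high in FBB1.11 alone, while Hmox1, Pygl and Dynll1 in FBB1.7 (purple) lie on the side of FBB1.10.

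Erythroid markers ranged from bright, such as Gata1, to dim, such as Alas2, at means of 96.5 in FBB1.10 and 60.8 in FBB1.11. No gene of the erythroid lists passed. Gata1, the main erythroid transcription factor, averaged 2350.5 in FBB1.10 and 2335 in FBB1.11 (0.01, 95% interval from -0.13 to 0.15, adjusted p = 0.982), and Klf1, which drives adult beta-globin, 1105 and 1234 (-0.16, adjusted p = 0.621). None of 17 tested erythroid transcription factors, 13 genes of heme synthesis, 14 of iron handling, 12 of the membrane skeleton or 18 surface proteins and channels passed. Of all genes 0.28% passed, so lists of this size can lack a call without differing from other genes. The members with the smallest p were the heme synthesis enzyme Alas2 (0.54, adjusted p = 0.191), the skeleton protein Tmod1 (0.66, adjusted p = 0.0954), the transferrin receptor Tfrc (-0.43, adjusted p = 0.0862) and the blood group protein Rhd (-0.61, adjusted p = 0.0741). Tmod1 passed in 3 alternatives, Tfrc and Rhd in 6 each and Alas2 in none.

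No globin probe set passed. The brightest probe set shared by Hba-a1 and Hba-a2, adult alpha-globin, read 2752 and 3264 in FBB1.10 and 2502 and 2824 in FBB1.11 (0.17, 95% interval from -0.04 to 0.39, adjusted p = 0.676). Adult beta-globin, read by one probe set common to its genes, gave 875 and 923 against 1056 and 1177, with the arrays apart (-0.31, interval from -0.49 to -0.12, adjusted p = 0.231). A dim probe set of Hba-a2 alone read 38.6 and 92.9 against 139.5 and 126 (-0.95, adjusted p = 0.147), and passed without array 2 of FBB1.10 and in the fit of only the 4 arrays. Of the embryonic beta-like globins, Hbb-bh1 and Hbb-y were below the filter in all 5 lines. The embryonic alpha-like Hba-x was tested and averaged 66.1 in FBB1.10 and 56.7 in FBB1.11 (0.17, limma's adjusted p = 0.789). A dim probe set of Hbb-b2 alone averaged 35.4 and 42.3 (-0.17, adjusted p = 0.863). None of 21 globin switching regulators or 13 members of the NuRD complex, a corepressor that binds BCL11A, passed, against 0.28% of all genes. The list medians were 0.01 and -0.06.

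Markers of other blood cells and stroma were read from 6 lists. Of 16 tested megakaryocyte and platelet genes Plek alone passed, against 0.28% of all genes. The summed intensity of the list was 1537 to 1859 in FBB1.10 and 1549 to 1576 in FBB1.11, with Vwf at means of 17.12 and 16.96. None of 10 mast cell genes passed (summed intensity 3289 to 3859 and 3316 to 3336). The mast cell protease Mcpt2 averaged 2096 and 1487 (0.48, adjusted p = 0.148), and the granule proteoglycan Srgn stood at -0.53 (adjusted p = 0.0581). None of 14 granulocyte and macrophage, 8 B lymphoid, 6 T and NK lymphoid or 10 stromal genes passed, where 0.28% of all genes did. Their part in the differences above was not tested. In bulk RNA, fewer cells of a kind and less RNA per cell cannot be told apart.

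Cell cycle genes showed no call in 28 replication and 26 mitosis genes, against 0.28% of all genes. Of the mitosis genes 20 of 26 were above 0, against 50.9% of all genes, with a median of 0.14 and a highest value of 0.35 for the checkpoint kinase Ttk (adjusted p = 0.534). Sterol synthesis, glycolysis, ribosomal protein and interferon lists had no passing gene and medians between -0.01 and 0.03. Over all 35 lists 12 of 565 tested members (2.12%) passed, against 0.28% of all genes, from lists chosen with earlier results of these data known. By the brightest probe set, called genes lay on 16 of 20 chromosomes, and none on 4, 13, 15 or 16. The highest shares of called genes were 0.688% on chromosome 12, 0.673% on 19 and 0.509% on X, each from 2 or 3 genes, and the median difference lay between -0.03 and 0.03 on each of the 20 chromosomes. The actin controls, whose 3′ over 5′ ratio tracks RNA integrity, gave 1.12 to 1.17 on the 4 arrays, against 1.06 to 1.80 over all 10.

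The other 3 lines had no part in the contrast and were used to place FBB1.10 and FBB1.11. For the 67 called probe sets, FBB1.7 lay nearer FBB1.10 than FBB1.11 in 62 (92.5%), against 56.7% of all tested probe sets and 70.7% of the 2110 with an unadjusted p under 0.05 that were not called. The parental line lay nearer FBB1.10 in 28 (41.8%, against 46.5% of all tested) and FBB1.5 in 14 (20.9%, against 43.0%). Among the same 2110 uncalled probe sets these shares were 36.0% for the parental line and 28.4% for FBB1.5. In 34 probe sets FBB1.7 went with FBB1.10 while parental and FBB1.5 went with FBB1.11. That share was 50.7%, against 20.6% of all tested and 37.3% of the 2110 uncalled probe sets. Among the 34 were those of Calr, Hsp90b1, Pdia6, Ero1a, Hspa9, Asns, Hmox1, Gpx1, Dynll1, Mindy1 and Pygl. Hspa5, as an example, read 1425 and 1380.1 in FBB1.7 and 831 and 878 in the parental line, and Hmox1 read 517 and 462 in FBB1.7 against 164 and 179. FBB1.7 thus read above both arrays of FBB1.10 for Hmox1 and below both for Hspa5.

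In 11 probe sets all 3 other lines lay nearer FBB1.10, which left FBB1.11 apart. That share was near that of all tested probe sets (16.4% against 14.7%). It was above the 9.62% among those with an unadjusted p under 0.05 that were not called. The 11 belong to Bex4, Insl6, Nrgn, Cdc14b, Crebzf, Snhg1 (3 probe sets), 2 probe sets without a symbol and Syt1, for which the filter fixed this beforehand. In 2, of Pitpnc1 and of 1 of the 3 called Morf4l2 probe sets, FBB1.10 was apart. That share was 2.99%, against 15.4% of all tested and 13.1% of the same uncalled probe sets. In the other 2 of Morf4l2 FBB1.7 went with FBB1.10. Pitpnc1 read 678 and 689 in the parental line and 419 to 550.1 in FBB1.5 and FBB1.7, all above its level in FBB1.10.

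**Figure D4:**
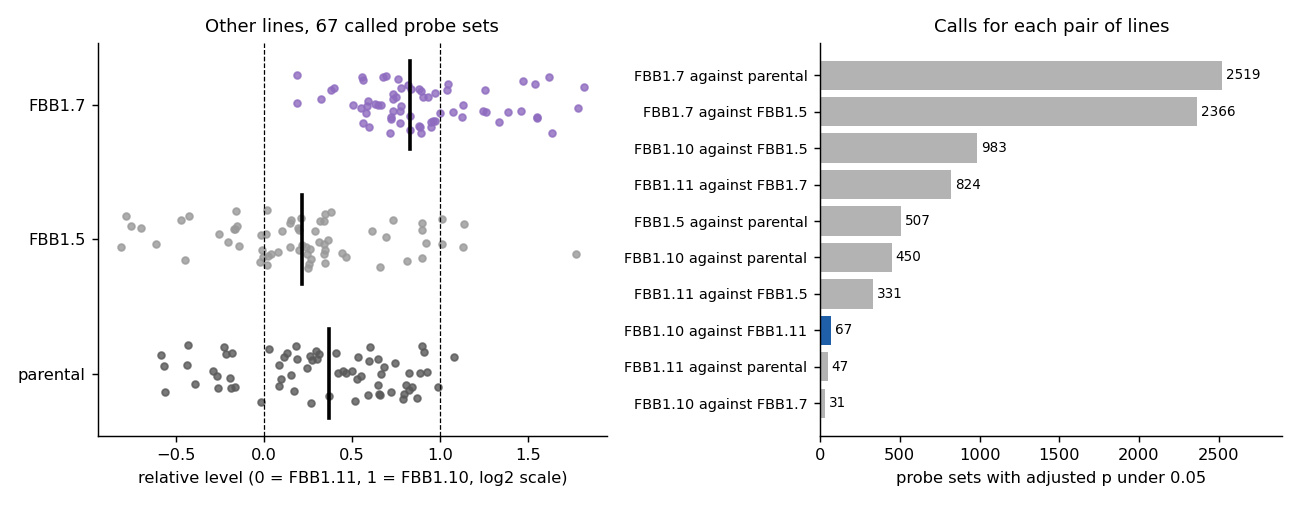
Left, relative level of the parental line, FBB1.5 and FBB1.7 in the 67 called probe sets on the log2 scale, where 0 is the mean of FBB1.11 and 1 the mean of FBB1.10; points are probe sets, spread vertically at random, and black bars are medians (0.37, 0.22 and 0.83). Right, the number of probe sets with limma's adjusted p under 0.05 for each pair of the 5 lines; FBB1.10 against FBB1.11 (blue) has 67, and these pairs share arrays.

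The counts for the other pairs of lines, which share arrays with this one, were as follows. FBB1.10 differed from FBB1.7 in 31 probe sets (0.124%), from the parental line in 450 (1.8%) and from FBB1.5 in 983 (3.92%). FBB1.11 differed from the parental line in 47 (0.188%), from FBB1.5 in 331 (1.32%) and from FBB1.7 in 824 (3.29%). FBB1.5 and FBB1.7 differed from the parental line in 507 (2.02%) and 2519 (10.1%) and from each other in 2366 (9.44%). By the count of unadjusted p under 0.05 the order differs: FBB1.10 against FBB1.11 had 2178, FBB1.10 against FBB1.7 had 2675 and FBB1.11 against the parental line 2956, and the median absolute log2 differences were 0.118, 0.125 and 0.131.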

How the data were processed

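Total RNA of each line was hybridised to Affymetrix mouse arrays as biotin-labelled cRNA, per the labels' protocols. The authors' deposited series matrix holds intensities on a linear scale, and their probe summary and scaling are not given in the sources used here. Control probe sets (64 of 45101) were left out. Array medians on the log2(intensity + 16) scale differed by 0.0623, so no further normalization was applied. Means of the 5 lines were fitted in R 4.3.3 with limma 3.58.1 (eBayes with an intensity trend, 5 residual and 9.92 prior degrees of freedom), two-sided, with Benjamini-Hochberg adjustment over 25061 probe sets. The fit was tested on simulated data. A fold whose dimmer line had an array no brighter than the table median is a lower bound against that median. The number of arrays limits the precision. Gene symbols come from the platform annotation, and 34754 of 34958 probe sets with 1 symbol matched RefSeq (GRCm38.p6). Of the 21 ER genes 18 had a RefSeq promoter window. A gene is read by its brightest probe set. Named were Bcl11a and the globins, the 12 highest and 12 lowest passing genes, up to 3 passing members of each list or else the one with the smallest p, and the brightest called genes of the 3 chromosomes with the highest shares. The 12 highest and 12 lowest were required to have array pairs that did not overlap. Their brighter line also had to exceed the table median on both arrays. Cdc14b, Crebzf, Ero1a, Xbp1, Ptms, Chaserr, Ptprs, Gstm1, Pan2, Ero1b and list members given without a call were named after their values were seen, as was the ERSE search. The comparison and the lists were chosen with earlier results of these data known. Alternatives covered the pseudocount, normalization, filter, arrays in the fit, variance model, replicate number, size of change and each array left out. Figures were drawn with matplotlib 3.10.9.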

Additional observations from a re-analysis of the deposited data

How the results depend on the processing

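All 67 probe sets kept their direction in each of the 22 alternatives in which they were tested. For most alternatives this could not have come out otherwise. The filter, variance model and minimum size leave the difference itself unchanged, and leaving out 1 array cannot reverse pairs that do not overlap. The count was 61 to 92 under other pseudocounts, quantile normalization (where 58.7% were higher in FBB1.10, against 65.7%), median centring, filters on the mean or robust eBayes. It was 27 without a filter, which tests 45037 probe sets, 259 with only the 4 arrays of both subclones, 2 without an intensity trend and 40 with a minimum of 1.5-fold. Leaving out 1 array gave 7 to 151. Of the 12 list members that passed, the count was 5 without a filter, 32 with only the 4 arrays, 1 without an intensity trend, 6 with a minimum of 1.5-fold and 1 to 23 with 1 array left out. It was 15 if any probe set of a gene may pass, an alternative chosen after seeing the data. When a gene was read by the median of its probe sets, 0 of these 12 and 47 of all 565 changed sign. With the replicate number as a replicate block, 105 probe sets and 19 list members passed. Deviations of same-numbered arrays correlated between -0.157 and 0.183 over pairs of lines and at -0.0409 for FBB1.10 with FBB1.11. These values neither establish nor exclude a pairing of the arrays by number. Of 34 named calls 32 were lost without the intensity trend, and 0 under the replicate block or with only the 4 arrays. The difference of the brightest Bcl11a probe set, 0.02, reversed to -0.026 without array 1 of FBB1.10 and to -0.065 without array 1 of FBB1.11, with a range of -0.065 to 0.11 over single arrays left out, and did not pass in any alternative. The cause of these changes was not tested. A line reduced to 1 array borrows its spread from the others. With 2 arrays a line, signal near the table median gives only bounds.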
